A study of Homo sapiens with 4 samples.

Results

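Keratins are the intermediate filament proteins of epithelial cells, and the genes described here are those whose annotated symbol is KRT followed by a number. Of 19775 genes with a single-symbol probe set (a group of short probes for one transcript), 44 are keratins, covered by 56 probe sets. For each gene the probe set with the highest mean signal over the 4 arrays was used. A further 11 keratins of the known family, among them KRT17 and KRT6A, have no probe set with exactly 1 symbol here and are not analysed as members. The RNA came from CAPAN2, a human cell line established from a ductal adenocarcinoma of the pancreas. The cells were grown with 10% serum and received lentivirus together with hexadimethrine bromide at 8 µg/ml, which aids viral entry. The 2 control arrays are from cells given control lentivirus, and the other 2 arrays are from cells given lentivirus carrying shRNAs (short hairpin RNAs) against LLGL1, a cell polarity gene, and are called the LLGL1-labelled arrays. All 4 share the line, the medium and the transduction, and the cells come from 1 line, so other ductal tumours are not represented. The labels call the arrays of a group biological replicates without naming separate cultures, so p-values measure only the spread between these arrays.

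A keratin filament is built from heterodimers that join one type I and one type II keratin, so the types are made in pairs. In simple, single-layered epithelia such as the pancreatic duct, the type II keratins KRT8 and KRT7 join the type I keratins KRT18 and KRT19. Stratified epithelia use KRT5 with KRT14 in the basal layer and KRT1 with KRT10 above it, while hair has sets of its own. Filaments are tied to desmosomes and hemidesmosomes by plakin proteins and give the epithelial sheet its resistance to stretch.

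LLGL1, the targeted gene, checks the labels, and its difference did not pass the test. The brightest LLGL1 probe set read 6.83 and 6.86 (log2) on the control arrays and 6.73 and 6.71 on the LLGL1-labelled arrays. This is a log2 difference of -0.12 (95% interval -0.27 to 0.02, limma adjusted p = 0.22), short of the threshold, with both LLGL1-labelled arrays below both controls. Its other probe sets differed by 0.09 and 0.06. The LLGL1 signal does not settle the labels, and every direction that follows compares arrays by them. Array medians (log2) were 2.95 to 2.98, and replicate arrays correlated across probe sets at 0.9971 in both groups. Arrays of different groups correlated at 0.9926 to 0.9936. Probe sets for 18S ribosomal RNA were lower on the LLGL1-labelled arrays by a mean log2 difference of -1.97 and poly-A spikes, RNAs added before labelling, by -1.14, while the GAPDH signal at the 3′ end exceeded that at the 5′ end by 0.36 to 0.42 on the 4 arrays and that of ACTB by 3.11 to 3.15. The ACTB control probe sets were higher on the LLGL1-labelled arrays by 0.44 to 0.48. The part of these control signals in the keratin differences was not tested.

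Of the 44 keratins, 5 passed limma's test at a Benjamini-Hochberg adjusted p below 0.05. KRT7 and KRT10 rose on the LLGL1-labelled arrays, and KRT19, KRT80 and KRT15 fell. Over all genes tested 6.28% passed, 3.21% as higher and 3.07% as lower, and a keratin count of this size is not read as a property of the family. Fewer cells of a type and less RNA per cell cannot be told apart in such bulk RNA. When any 1 of the 4 arrays was left out, limma called 0 of all genes, with 3496 to 4546 genes and 6 to 10 keratins at an unadjusted p below 0.05, so the lost calls say nothing about single arrays. The log2 differences without 1 array were 1.53 to 1.71 for KRT7, 0.54 to 0.62 for KRT10, -0.62 to -0.60 for KRT19, -0.82 to -0.67 for KRT80 and -0.79 to -0.63 for KRT15. The median log2 difference of the keratins was -0.02, beside 0.01 for all genes, with 17 keratins above 0 and 25 below. The calls fell on keratins with a signal: 2 of 4 with a mean log2 signal of at least 7, 3 of 4 between 4 and 7, and 0 of 36 under 4 in limma, of which 6 had an unadjusted p below 0.05. Over all genes in those signal ranges 11.2%, 9.77% and 1.65% passed. No test compared these shares. In the same limma fit 13 of the 44 keratins had an unadjusted p below 0.05, beside 5565 of all 19775 genes. In 18 keratins the groups did not overlap, 7 with the LLGL1-labelled arrays above control and 11 with them below. Over all genes that held for 52.4%, with 27.7% above and 24.7% below.

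**Figure D1:**
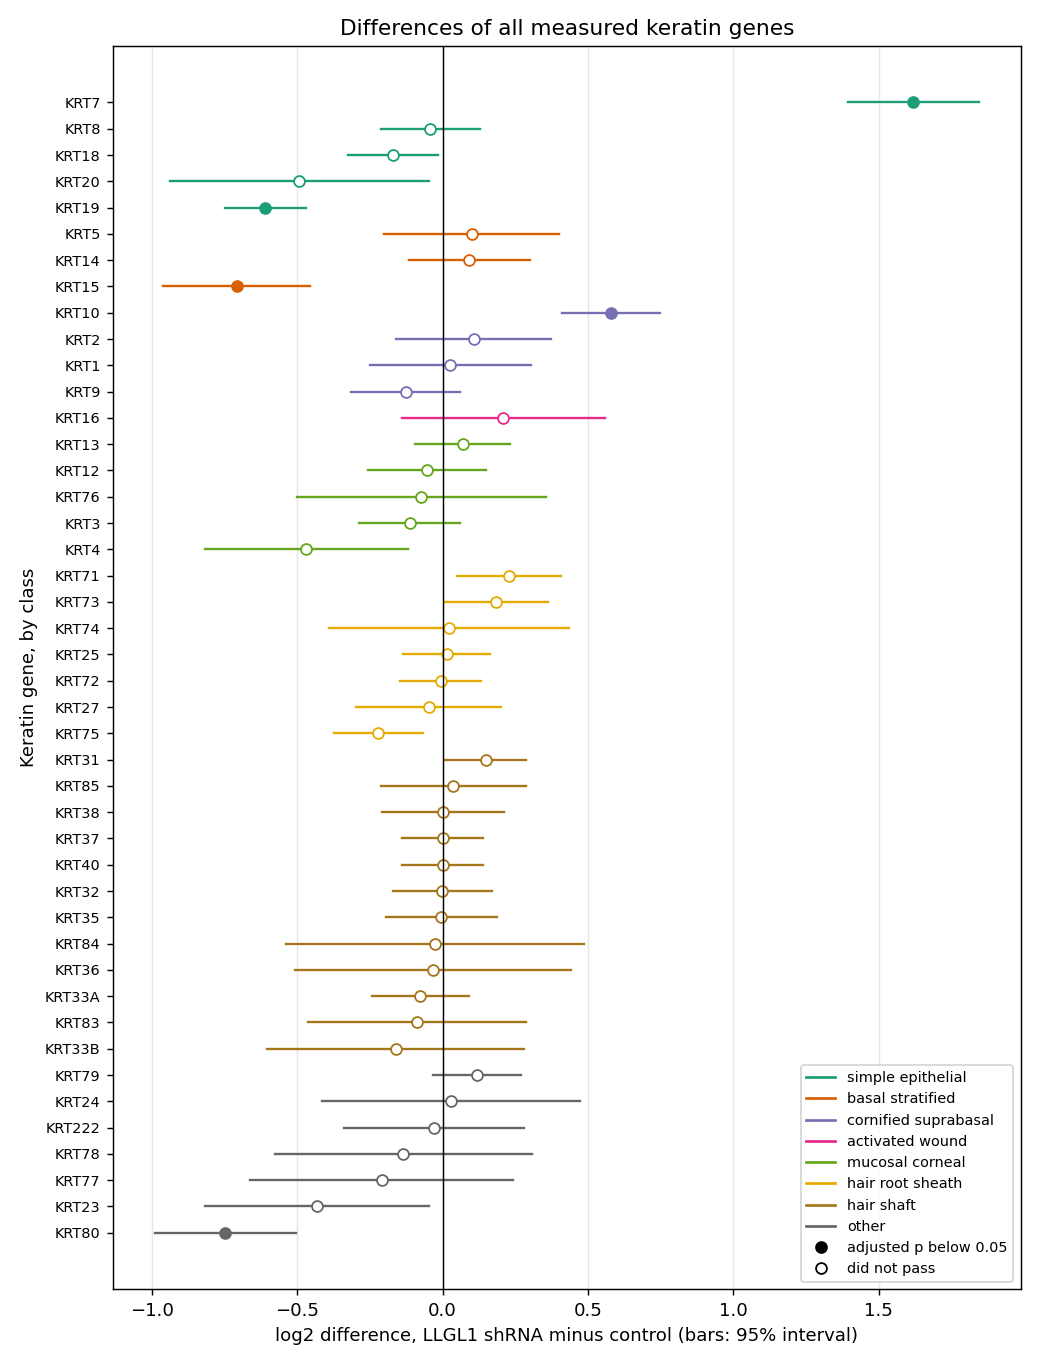
Log2 difference (LLGL1-labelled arrays minus control) of each of the 44 measured keratin genes, with limma's 95% interval as a bar, coloured by class, and filled where the adjusted p was below 0.05. KRT7 stands at 1.62 and KRT10 at 0.58, KRT19, KRT15 and KRT80 lie between -0.61 and -0.75, and the 39 others lie within 0.49 of 0.

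A regulatory sequence is shown for KRT10, the member among the 5 called for which the RefSeq promoter table (GRCh38.p14) holds an entry. It gives the 250 bases before the annotated start site, chr17:40822615-40822864 on the minus strand, written 5′ to 3′ along the gene. The capitals mark a TATA box motif that begins at -29 from the start site and a KLF-type motif that begins at -217.
KRT10: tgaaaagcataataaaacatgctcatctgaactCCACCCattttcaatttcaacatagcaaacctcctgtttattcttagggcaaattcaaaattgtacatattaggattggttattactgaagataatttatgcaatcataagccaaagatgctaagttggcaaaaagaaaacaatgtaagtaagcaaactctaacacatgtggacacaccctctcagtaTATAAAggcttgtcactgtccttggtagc
The table matched 29 of the 44 keratins, and KRT7, KRT15, KRT18, KRT19 and KRT80 are among the 15 without a match. The letters searched on either strand for the TATA box were TATAAA, found in 15 of these 29 windows, against 11.1% of 27305 windows of the same length. The KLF-type letters CCACCC were found in 8 of 29, against 30.4%, and the GC box GGGCGG, the core letters bound by SP1 and related factors, in 4 of 29, against 42.3%. The AP-2 type letters GCCNNNGGC were found in 5 of 29, against 19.7%, and the AP-1 type letters TGANTCA in 0 of 29, against 6.6%. In the KRT10 window none of the last 3 motifs matched, and the 2 matches it holds do not overlap. A match describes letters, not a bound site.

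The simple epithelial keratins went in different directions. KRT8, the type II keratin present in nearly all simple epithelia, read 11.00 and 10.93 (log2) on the control arrays and 10.96 and 10.89 on the LLGL1-labelled arrays. These values overlap, and KRT8 differed by -0.04 (95% interval -0.21 to 0.13, limma adjusted p = 0.72). KRT18, its type I partner, read 12.74 and 12.80 on control and 12.61 and 12.58 on the LLGL1-labelled arrays. The KRT18 arrays did not overlap, but the log2 difference of -0.17 (95% interval -0.33 to -0.01) did not pass (limma adjusted p = 0.15). Trend and robust moderation brought it past the threshold (limma adjusted p = 0.00922), as did a fit limited to genes of mean log2 signal 5 or more (0.0375). The probe sets of KRT8 and KRT18 are of the x_at kind, whose probes may also bind related transcripts. Probe sets annotated to the pseudogene KRT8P12 differed by 0.07 and -0.46 in log2 and did not pass.

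KRT19, a type I keratin of ducts and a common marker of ductal identity, fell. It read 11.54 on both control arrays and 10.92 and 10.94 on the LLGL1-labelled arrays. Both LLGL1-labelled arrays lay under both controls by a margin of 0.60. The group means were 11.54 ± 0.00198 and 10.93 ± 0.0168 (log2, SD, n = 2 each), a log2 difference of -0.61 (SE 0.0503, limma adjusted p = 0.0305), which is 1.53-fold lower. The dim second KRT19 probe set read 3.06 and 3.16 on control and 2.86 and 2.64 on the LLGL1-labelled arrays, also without overlap, with a log2 difference of -0.36 (limma adjusted p = 0.15 over probe sets). The mean of both probe sets gave a log2 difference of -0.48. In the fit over single probe sets the bright one passed as well (limma adjusted p = 0.0496).

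KRT7, the type II keratin typical of ductal and glandular epithelium, rose. Its brightest probe set read 4.28 and 4.30 on the control arrays and 5.998 and 5.82 on the LLGL1-labelled arrays. The groups were apart by 1.52, the widest margin among the 44 keratins in these 4 arrays. Group means were 4.29 ± 0.0172 and 5.91 ± 0.126 (log2, SD, n = 2 each). KRT7 thus differed by 1.62 (SE 0.081, 95% interval 1.39 to 1.85, limma adjusted p = 0.0214), a 3.07-fold rise. The authors' deposited table gives a ratio of 3.07 for this probe set, with an unadjusted p of 0.00307. KRT7 and its type I partner KRT19 thus moved in opposite directions on the same arrays.

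The rise of KRT7 rested on 1 of its 4 probe sets. The other probe sets read 2.92 to 2.95, 1.96 to 2.17 and 0.75 to 0.99 over the 4 arrays, at or under the array medians. Their log2 differences were -0.00078, 0.10 and 0.06, and each of the 3 had overlapping groups. Averaged over the 4 probe sets, the KRT7 log2 difference was 0.44 and passed (limma adjusted p = 0.0359), and taken as their median it was 0.05 and did not (adjusted p = 0.70). In the fit over single probe sets the brightest one passed (limma adjusted p = 0.0393). Of the 56 keratin probe sets tested in that way, 2 passed, this one and that of KRT19, against 0.83% of all single-symbol probe sets.

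KRT20, a type I keratin of intestinal and urothelial surface cells, was the last of the simple epithelial group. It read 3.80 and 3.64 on control and 3.03 and 3.42 on the LLGL1-labelled arrays, without overlap, and the log2 difference of -0.49 did not pass (limma adjusted p = 0.15). Its level lay close above the array medians. It is named here after its values were seen, as are KRT4 and KRT23 below. Of the 5 simple epithelial keratins, 1 rose, 1 fell and 3 did not pass.

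**Figure D2:**
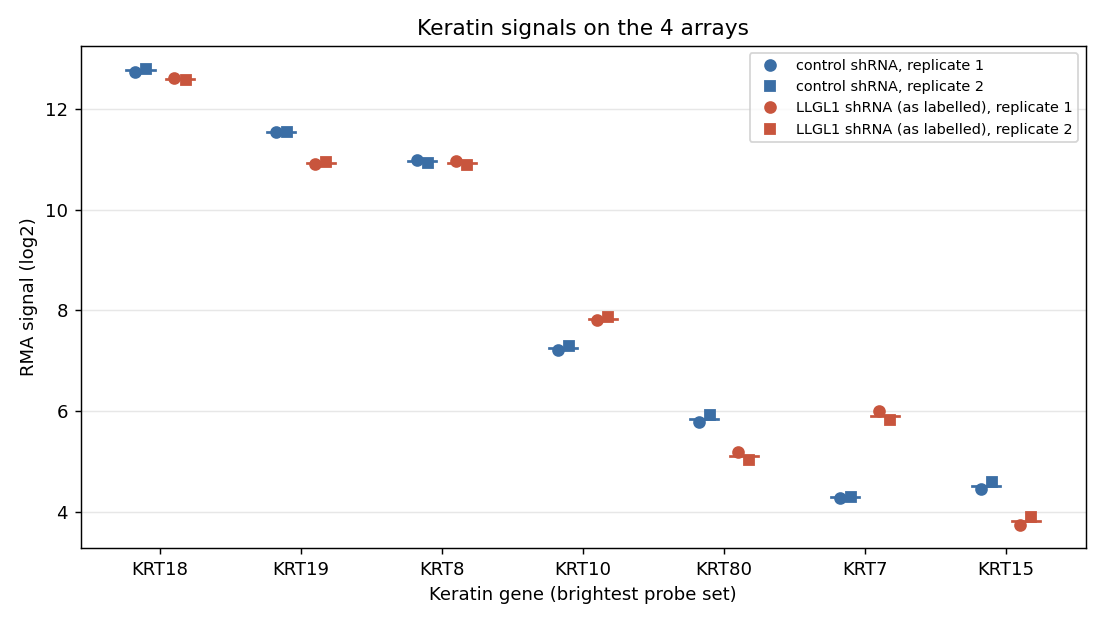
RMA signal (log2) of the 7 keratins that passed the test or had a mean signal of at least 7, on each of the 4 arrays, as points, with group means as short lines. For KRT19, KRT10, KRT80, KRT7 and KRT15 the groups are apart by more than 0.5, while for KRT8 they overlap.

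KRT10, a type I keratin best known from the suprabasal layers of the epidermis, rose by its brightest probe set, and its other 2 probe sets lay higher on both LLGL1-labelled arrays as well. The brightest read 7.22 and 7.30 on control and 7.81 and 7.87 on the LLGL1-labelled arrays, without overlap. Group means were 7.26 ± 0.0524 and 7.84 ± 0.0410 (log2, SD, n = 2 each), a difference of 0.58 (SE 0.0598, limma adjusted p = 0.0345), a 1.49-fold rise. The next probe set read 7.10 and 7.09 against 7.55 and 7.54, and the dimmest 6.65 and 6.58 against 7.20 and 7.18. Their log2 differences were 0.45 and 0.57. The brightest and the dimmest KRT10 probe sets are of the x_at kind, like those of KRT8 and KRT18, so their probes may also bind related transcripts. In the fit over single probe sets the 3 adjusted p values of KRT10 were 0.0537 to 0.0548 in limma, just over the threshold. A probe set for KRT10-AS1, an antisense RNA of the same locus, differed by 0.25 (log2) and did not pass (limma adjusted p = 0.14).

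Of the other keratins of the suprabasal epidermis none passed. KRT1, the type II partner of KRT10 in the epidermis, read 2.59 to 2.78 over the 4 arrays with a log2 difference of 0.03. KRT2 and KRT9, which belong to the upper epidermis and to palms and soles, differed by 0.11 and -0.13. All 3 lay under the array medians by their means.

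**Figure D3:**
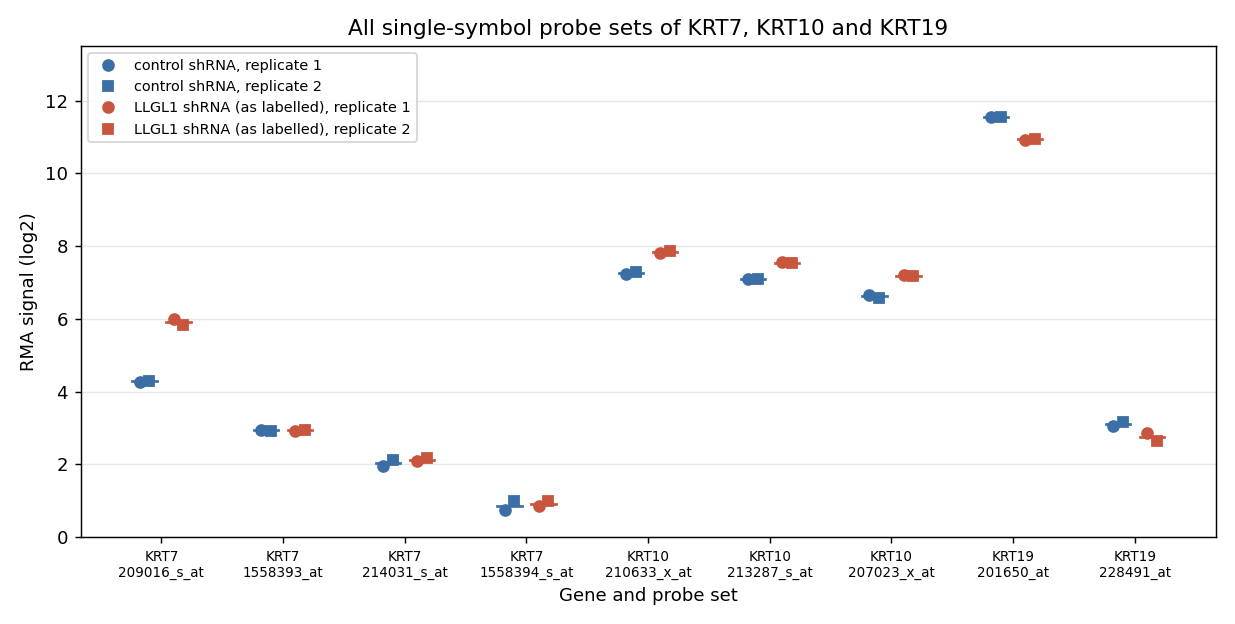
RMA signal (log2) of each single-symbol probe set of KRT7, KRT10 and KRT19 on the 4 arrays, with group means as short lines. The 3 KRT10 probe sets each lie higher on the LLGL1-labelled arrays, by 0.45 to 0.58, whereas 1 of the 4 KRT7 probe sets does so, by 1.62.

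KRT15, a type I keratin of basal cells and of hair follicle stem cells, fell. It read 4.45 and 4.59 on control and 3.73 and 3.89 on the LLGL1-labelled arrays, without overlap. KRT15 means were 4.52 ± 0.0947 and 3.81 ± 0.116 (log2, SD, n = 2 each), a difference of -0.71 (SE 0.0901, limma adjusted p = 0.0395), which is 1.63-fold lower. KRT5 and KRT14, the main basal pair, read 2.68 to 2.96 and 1.59 to 1.78 over the 4 arrays, under the array medians by their means. Their log2 differences were 0.10 and 0.09, and neither passed. KRT15 fell while neither member of the main basal pair passed, at signals that were low throughout.

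KRT80, a type II keratin found near desmosomes in differentiating epithelia, fell. It read 5.79 and 5.92 on control and 5.18 and 5.03 on the LLGL1-labelled arrays. The groups did not overlap. KRT80 means were 5.85 ± 0.0946 and 5.10 ± 0.106 (log2, SD, n = 2 each), a difference of -0.75 (SE 0.0869, limma adjusted p = 0.0361), which is 1.68-fold lower. KRT80 and KRT15 have 1 single-symbol probe set each, so no second probe set bears on them. In the fit over single probe sets neither passed (limma adjusted p = 0.0551 for KRT80 and 0.0591 for KRT15).

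The called keratins include genes that lie side by side, by the order of protein-coding genes in RefSeq. KRT15 and KRT19, which both fell, are immediate neighbours in the type I cluster on chromosome 17. KRT80 and KRT7 are immediate neighbours in the type II cluster on chromosome 12, where KRT80 fell and KRT7 rose. KRT8 and KRT18 also lie next to each other on chromosome 12, and neither passed. KRT10 lies in the type I cluster between KRT28, not analysed here, and KRT12, whose log2 difference was -0.05. Of the 24 measured type I keratins 1 rose and 2 fell, and of the 20 type II keratins 1 rose and 1 fell.

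The remaining keratins lay low. Of all 44, 29 had a mean below the lowest array median, and no detection call is given in the value table, so a low value is not read as presence or absence. KRT4, a type II keratin of internal stratified mucosa, read 4.33 and 4.61 on control and 3.92 and 4.07 on the LLGL1-labelled arrays, and its log2 difference of -0.47 did not pass (limma adjusted p = 0.11). It passed with trend and robust moderation in limma, but its dimmer probe set differed by 0.07 with overlapping groups. Its partner KRT13 differed by 0.07. KRT23, a type I keratin reported in gastrointestinal epithelium, read 3.98 and 3.67 on control and 3.30 and 3.49 on the LLGL1-labelled arrays, and its difference of -0.43 did not pass (adjusted p = 0.15).

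Among mucosal and corneal keratins 0 of 5 passed in limma, with 1 at an unadjusted p below 0.05. Hair root sheath keratins had 0 of 7 passing (3 at an unadjusted p below 0.05) and log2 differences from -0.22 to 0.23. Hair shaft keratins had 0 of 12 (1 at an unadjusted p below 0.05), with differences from -0.16 to 0.15. Beside these counts, 5565 of all 19775 genes had an unadjusted p below 0.05. KRT16, induced in wounded and activated keratinocytes, was the measured member of that group, with a log2 difference of 0.21 and overlapping arrays (limma adjusted p = 0.38). KRT17 belongs to the same group, but in the authors' deposited table it shares both of its listed probe sets with JUP. The table gives ratios of 2.62 and 2.03 for these, with unadjusted p of 0.0262 and 0.107. In the value table one of them read 2.69 and 2.92 on control and 3.997 and 4.39 on the LLGL1-labelled arrays, and the other 5.19 and 4.54 against 5.73 and 6.05. The probe set annotated to JUP alone differed by 0.11 (log2, limma adjusted p = 0.33). The signal of the shared probe sets is not assigned to either gene.

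Of 15 other intermediate filament genes, all measured, 4 rose and 1 fell, beside 3.21% and 3.07% of all genes, with a median log2 difference of 0.11. Whether this list differs from the keratins was not tested. VIM, the mesenchymal intermediate filament, read 4.01 on both control arrays and 6.53 and 6.47 on the LLGL1-labelled arrays, a log2 difference of 2.49 (limma adjusted p = 0.00816). Averaging both VIM probe sets gave 1.28. SYNM, synemin, which joins vimentin or desmin filaments, rose from 3.99 and 4.12 to 5.25 and 5.34, by 1.24. By the brightest probe sets the nuclear lamins split: LMNB1 rose by 0.68 and LMNB2 by 0.55, while LMNA fell (-0.54). The next LMNA probe set was nearly as bright, at a mean log2 signal of 8.87 against 8.90. It differed by -0.13 with overlapping groups (limma adjusted p = 0.50 over probe sets). Among dimmer ones, those at means of 7.98 and 7.40 differed by -0.32 without overlap and by 0.0068 with overlap. Averaged over its 6 probe sets LMNA differed by -0.18 and did not pass (limma adjusted p = 0.27). The summed linear signal of 10 fibroblast markers was 90.3 to 91.5 on control and 89.7 to 102 on the LLGL1-labelled arrays, and single markers read 1.01 to 5.50 (log2). In limma 0 of these markers passed. THY1 and FAP, at an unadjusted p below 0.05, were higher on both LLGL1-labelled arrays by 0.17 and 0.26 without overlap, while COL1A1 read 5.09 to 5.50 and COL3A1 1.18 to 1.46 with overlapping groups. Their part in the result was not tested.

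Of 16 measured genes that anchor keratin filaments 1 fell and none rose, a count near the 6.28% of all genes. PPL, the plakin periplakin that binds keratins at the cell border, fell from 7.93 on both control arrays to 7.40 and 7.31, by a log2 difference of -0.58 (limma adjusted p = 0.0345). No other anchor passed. DSP, desmoplakin, the main link of keratins to desmosomes, differed by -0.17 (95% interval -0.31 to -0.02), PLEC, plectin, by 0.04 and JUP, plakoglobin, by 0.11. The list median was 0.00.

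Among 18 measured regulators of keratin genes or proteins, 3 fell and none rose, beside 3.07% and 3.21% of all genes. None of the 18 had a mean log2 signal under 4. Of all genes with means of 4 to 7 and of 7 or more, 9.77% and 11.2% passed in either direction. No test compared the regulators with these genes. GRHL3, a grainyhead factor of the epithelial barrier, differed by -0.57, the Kruppel-like factor KLF5 by -0.45 and the ETS factor EHF by -0.36 (limma adjusted p = 0.0397, 0.0356 and 0.0445). KLF5 and EHF did not pass when the median of a gene's probe sets was used (adjusted p = 0.0507 and 0.0526). KLF5 read 10.16 on both control arrays and 9.70 and 9.73 on the LLGL1-labelled arrays. Its dimmer probe set differed by -0.52 (adjusted p = 0.12 over probe sets). SP1 differed by -0.06, and SFN, the 14-3-3 protein that binds keratins, by -0.03. Neither passed.

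The list of cornified envelope genes and other genes linked to terminal differentiation of keratinocytes had 1 of 18 members called, near the 6.28% of all genes. KLK7, a protease that cleaves corneodesmosomes in skin, fell from 9.48 and 9.47 to 8.94 and 8.86 (log2 difference -0.58, limma adjusted p = 0.0331), and its other probe set differed by -0.53. The other 17 members, involucrin (IVL) and loricrin (LORICRIN) among them, had means under 4 and did not pass. No gene of this list was called in the direction of KRT10. Of all genes with means under 4 only 1.65% passed, so the lack of such a call does not bear on KRT10.

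Markers of ductal identity had a signal on every array. EPCAM read 11.01 to 11.25, MUC1 7.32 to 7.41 and SOX9 9.40 to 9.84 (log2). Of the 9 measured, 1 rose (KRT7) and 2 fell (KRT19 and CDH1), beside 3.21% and 3.07% of all genes. Differences were below 0 for 7 of the 9, beside 9132 of all 19775 genes. KRT7, KRT8, KRT18 and KRT19 are on this list too, so their values given above are counted again here. None of the 9 had a mean under 4. Of all genes with means of 4 to 7 and of 7 or more, 9.77% and 11.2% passed in either direction. SOX9 lay lower on both LLGL1-labelled arrays without overlap, by -0.39, and did not pass (limma adjusted p = 0.0518). CDH1, the epithelial cadherin, fell (log2 -0.47, limma adjusted p = 0.0356), but did not pass when its 2 probe sets were averaged (adjusted p = 0.0642). Of the other cell types, 0 of 8 immune, 0 of 8 endothelial and 0 of 4 acinar markers passed in limma, with 0, 1 and 0 at an unadjusted p below 0.05. The summed linear signal of the endothelial markers was 71.6 to 72.2 on control and 77.3 to 78.5 on the LLGL1-labelled arrays, and that of the acinar markers 14.8 to 16.8 and 16.9 to 17.6, both higher without overlap. The immune markers summed to 55.6 to 55.7 and 55.8 to 58.0, also without overlap. These signals were low, with means under 4 (log2) for 8 of 8 endothelial, 4 of 4 acinar and 7 of 8 immune markers. Taken singly, 3 endothelial, 0 acinar and 0 immune markers had groups without overlap, beside 52.4% of all genes. Of the endothelial markers, ROBO4, CLDN5 and KDR were higher on both LLGL1-labelled arrays, by 0.29, 0.13 and 0.16 (log2). Among immune markers CD14 read 4.21 to 4.44 and PTPRC 1.06 to 1.46, both with overlapping groups. The part of these markers in the keratin differences was not tested.

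**Figure D4:**
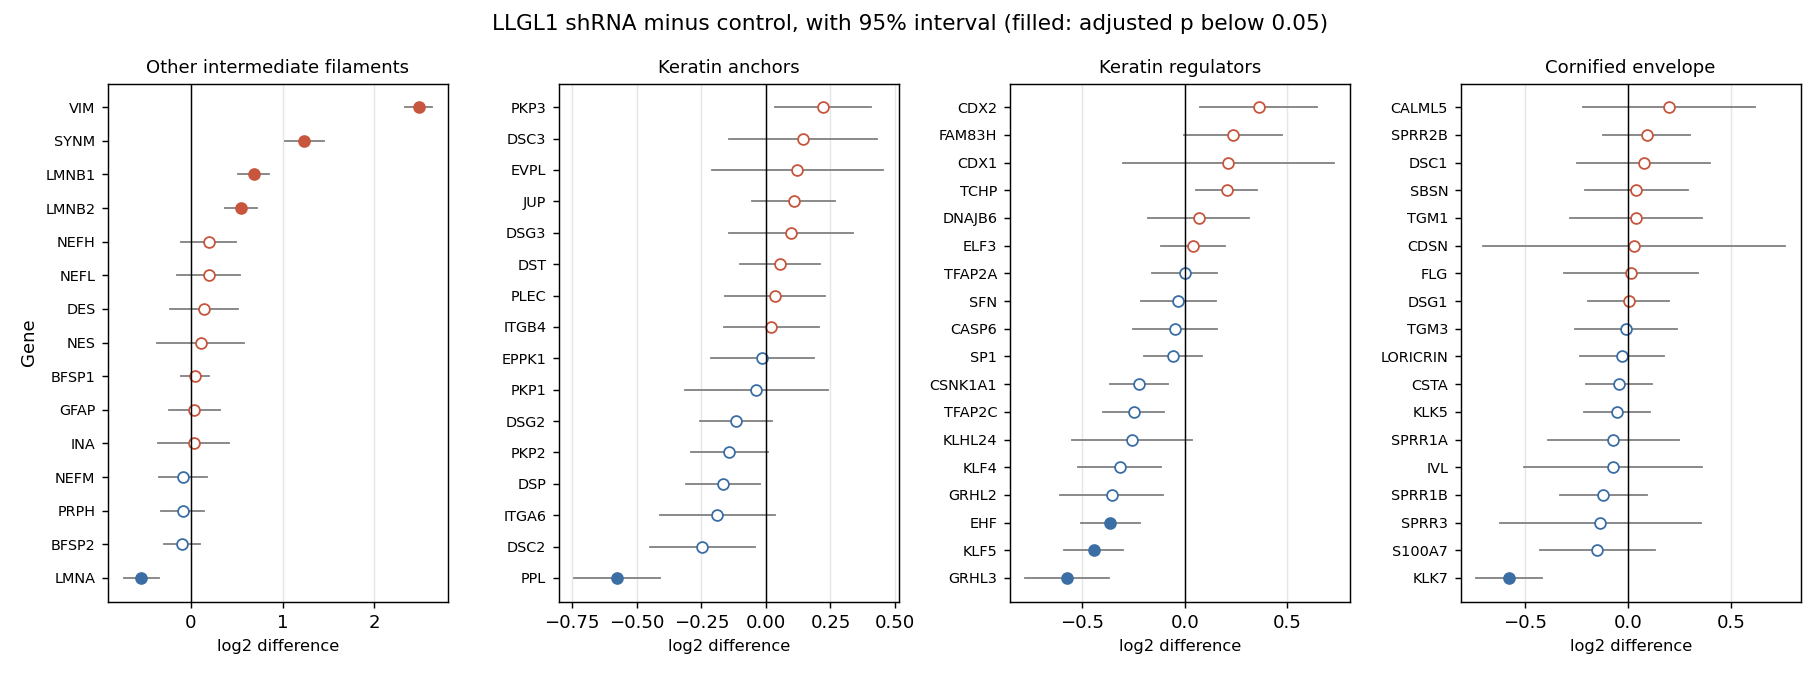
Log2 differences (LLGL1-labelled arrays minus control) with 95% intervals for the genes of 4 lists related to keratins, 1 panel per list with its own horizontal scale, filled where the adjusted p was below 0.05. The intermediate filament panel holds 4 rises led by VIM and the fall of LMNA, and the other 3 panels hold 1, 3 and 1 falls.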

How the data were processed

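Biotinylated cRNA was made from 100 ng total RNA per sample, per the labels' protocols. The authors deposited log2 signals of 54675 probe sets on 4 arrays, with RMA and Partek 6.6 named in the submitters' processing notes. The RMA settings were not stated in these sources. A deposited table of the authors' comparison holds 294 rows, not all probe sets. It gives a p-value, a ratio and a signed fold score per probe set, per the file headers. For those rows the ratio matched the group means of the value table within 1.68e-05 on the log2 scale. The platform annotation gave 1 symbol to 41097 probe sets and several to 1801, and 11777 are unnamed here. Entrez identifiers of 41043 matched the RefSeq gene table, which changed 0 symbols.

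Differences were fitted with lmFit and eBayes in limma 3.58.1 (R 4.3.3), two-sided, over 19775 genes with the brightest probe set each, and separately over all 41097 probe sets, and p-values were adjusted by Benjamini and Hochberg and called below 0.05. Residual degrees of freedom were 2 and prior ones 1.94. The number of arrays limits precision. Array values were given for LLGL1, for keratins that passed or had a mean of at least 7, and for KRT20, KRT4 and KRT23. They were also given for the probe sets shared by JUP and KRT17. Of the other list members that passed, VIM, SYNM, PPL, KLF5 and KLK7 have array values, and the rest have differences only. The members and lists were chosen with earlier results of these data known. The replicate numbers were checked for pairing over 2 pairs (correlation of deviations -0.13) and not used in the fit. Alternatives covered scaling, moderation, a signal filter, probe set averaging, the block, left-out arrays and thresholds. Known changes put into simulated arrays tested the script first.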

Additional observations from a re-analysis of the deposited data

How the results depend on the processing

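The same 5 keratins passed after median centring, after cyclic loess and with a gene's probe sets averaged. With the median of all probe sets 1 keratin was higher (KRT10), and with a 1.5-fold minimum 1 was higher (KRT7). Trend and robust moderation put 5 keratins lower, adding KRT18 and KRT4. Among genes with a mean of at least 5, KRT18 joined the calls and KRT15 was not tested. Keratin probe sets tested on their own numbered 2 calls, 7 after median centring, after cyclic loess, with the signal filter or at an adjusted p below 0.1, and 9 with trend and robust moderation. Over all genes the calls were 635 higher and 607 lower, 1951 and 1984 with trend and robust moderation, 1858 and 2081 with the signal filter, 956 and 925 after median centring, and 1194 and 902 after cyclic loess.

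Keratin anchors went from 1 call to 3 with trend and robust moderation, 4 with the signal filter, 2 with the mean or median of all probe sets, and 0 with the 1.5-fold minimum. Keratin regulators went from 3 calls to 9, 11 and, at an adjusted p below 0.1, 6, and to 0 with the 1.5-fold minimum. The 1.5-fold minimum left 3 of the 5 other intermediate filament calls and 0 calls in the cornified envelope list. The LLGL1 log2 difference turned to 0.0079 with the mean and 0.0915 with the median of its probe sets.

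With the replicate number as a block, limma called 0 genes, 0 keratins included (8 at an unadjusted p below 0.05), and 0 in each list and 0 keratin probe sets. In that fit 4284 of all 19775 genes had an unadjusted p below 0.05. The same-numbered arrays did not deviate together (correlation -0.13). With the numbers crossed, an alternative chosen after seeing the data, 0 genes and 0 keratins were called as well. In that crossed fit 11 keratins and 5520 of all 19775 genes had an unadjusted p below 0.05. Without any 1 of the 4 arrays, whether control_shRNA replicate 1 or 2 or LLGL1_shRNA replicate 1 or 2, the lone array is taken to vary like the other group. Counts were then 0 to 0 for keratins, probe sets and lists (6 to 10 keratins had an unadjusted p below 0.05). Over all genes the lowest adjusted p was then 0.19 to 0.26. The log2 differences without 1 array were 1.53 to 1.71 for KRT7, 0.54 to 0.62 for KRT10, -0.62 to -0.60 for KRT19, -0.82 to -0.67 for KRT80, -0.79 to -0.63 for KRT15 and -0.14 to -0.11 for LLGL1. Since no gene of the whole table passed in such a fit, the lost calls say nothing about single arrays. A signal near background limits what the dim keratins can show.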
